A study of Mus musculus with 22 samples.

Results

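Collagens are extracellular proteins built from 3 chains wound into a triple helix, and each chain has its own gene. Fibrillar collagens form the fibrils of the meninges and vessel walls, type IV collagen forms the sheet of the vascular basement membrane, and type VI collagen forms beaded filaments at cell surfaces. FACIT collagens (fibril-associated, with interrupted helices) sit on fibrils or near membranes, and transmembrane collagens such as Col23a1 and Col25a1 are anchored in the cell that makes them. In brain, neurons make some collagens, while endothelial cells, mural cells and meningeal fibroblasts make others.

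The collagen genes were taken as every gene whose symbol reads Col, a number, a and a number. There were 44 of them among the 20565 genes of the count tables. Of these, 40 passed the filter on low counts in each sex and were tested. The other 4, Col17a1, Col6a6, Col4a3 and Col10a1, averaged under 1 CPM (counts scaled to library size) over all libraries and were not tested within either sex. All but Col10a1, 43 genes, were tested for a difference between the sexes.

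Bulk RNA sequencing libraries came from 22 mice, 8 weeks old, all with floxed Smc3 and all sampled 6 weeks after tamoxifen by oral gavage. The tissue field of the records names the prefrontal cortex and the titles name the hypothalamus, and the tissue field was followed. Every title, in all groups, also reads control, week 6. Animals carrying the tamoxifen-dependent Camk2a-cre/ERT2 are labelled cKO (6 males and 6 females) and animals without it WT (5 males and 5 females). The Camk2a promoter acts in forebrain excitatory neurons, so other cells of the tissue, and those that make vascular and meningeal collagen among them, were not the target. The comparison asks how collagen transcripts differed between these genotypes within each sex, and whether that difference changed with sex.

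Library totals ran from 12771354 to 15028342 counts in males and from 13832715 to 16896239 in females. The count of Smc3, the targeted cohesin subunit, went against the label: it was 71.8 to 95.6 CPM in male WT and 131 to 172 CPM in male cKO, and 65.5 to 83.6 CPM in female WT and 121 to 149 CPM in female cKO. A count over the whole gene does not separate the deleted part from the rest, so the genotype labels could not be checked by it. Why the count was higher in cKO was not tested. Below, cKO and WT are used as names of the labelled libraries, and every direction of change follows these labels. Titles name the hypothalamus, but all 11 markers of cortical excitatory neurons averaged at least 1 CPM in every group, and of 7 hypothalamic markers 4 were in the tables and 1 reached that level. Oligodendrocyte markers varied widely within each group, from a summed 1800 to 9960 CPM in male WT and from 4336 to 14077 CPM in female cKO. Male cKO libraries 8 and 9 and male WT library 6 were highest in leptomeningeal fibroblast markers, at 374, 436 and 288 CPM, against 94.8 to 175 CPM in the other male libraries.

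Per kilobase of exon, the most abundant collagen in WT was Col6a1, the alpha 1 chain of type VI collagen, at 64.7 ± 16.5 CPM per kb in males and 50.3 ± 14.4 in females (SD, n = 5 each). Col4a2 followed at 13.99 ± 1.89 and 11.3 ± 2.52 CPM per kb (SD, n = 5 each), then Col4a1 at 8.74 ± 1.24 and 6.58 ± 0.891 (SD, n = 5 each). Both are the main chains of vascular basement membrane. The next levels per kb, averaged over both sexes of WT, were 7.52 for Col9a3, 7.45 for Col25a1, 6.32 for Col23a1 and 5.83 for Col6a2, and neighbours in this order lay within each other's spread. The type I and III chains of meningeal fibrils were lower, at 1.65 for Col1a2, 1.48 for Col1a1 and 0.30 for Col3a1. Each length was the union of all annotated exons of the gene: 4.38 kb for Col6a1, 8.33 kb for Col6a2 and 12.4 kb for Col1a2. Where that union is longer than the transcript made, the level per kb is too low, so the order depends in part on annotation.

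Summed over all collagen genes, male WT libraries held 1046 ± 192 CPM (SD, n = 5), and male cKO libraries held 794 ± 141 CPM (SD, n = 6). In females the sums were 870 ± 141 CPM in WT (SD, n = 5) and 714 ± 31.2 CPM in cKO (SD, n = 6). The 6 type VI genes accounted for 35.7% of the collagen total in male WT and 25.2% in male cKO, and for 33.6% and 24.9% in females. Fibrillar genes accounted for 17.9% and 25.5% in males and 16.4% and 22.98% in females. Shares of one total move against each other, so these values are a description.

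Few collagen genes passed the test, and every one that did was lower in cKO. In males 2 of 40 fell, Col6a2 and Col12a1, and none rose. In females 5 of 40 fell, these and Col23a1, Col24a1 and Col6a1, and none rose. The test was edgeR's quasi-likelihood F test with Benjamini-Hochberg adjustment over all genes and a threshold of 0.05. Over all genes it called 0.503% as fallen and 0.0808% as risen in males (94 calls, 0.584%), and 2.75% as fallen and 0.62% as risen in females (543 calls, 3.37%). The median log2 fold change of the 40 genes was -0.09 in males and -0.06 in females, beside 0.01 over all genes in each sex. At an unadjusted p under 0.05, 10 collagen genes were counted in males, 4 higher and 6 lower (all genes 9.49%, 3.94% and 5.55%), and 16 in females, 8 higher and 8 lower (all genes 15.7%, 6.59% and 9.14%).

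**Figure D1:**
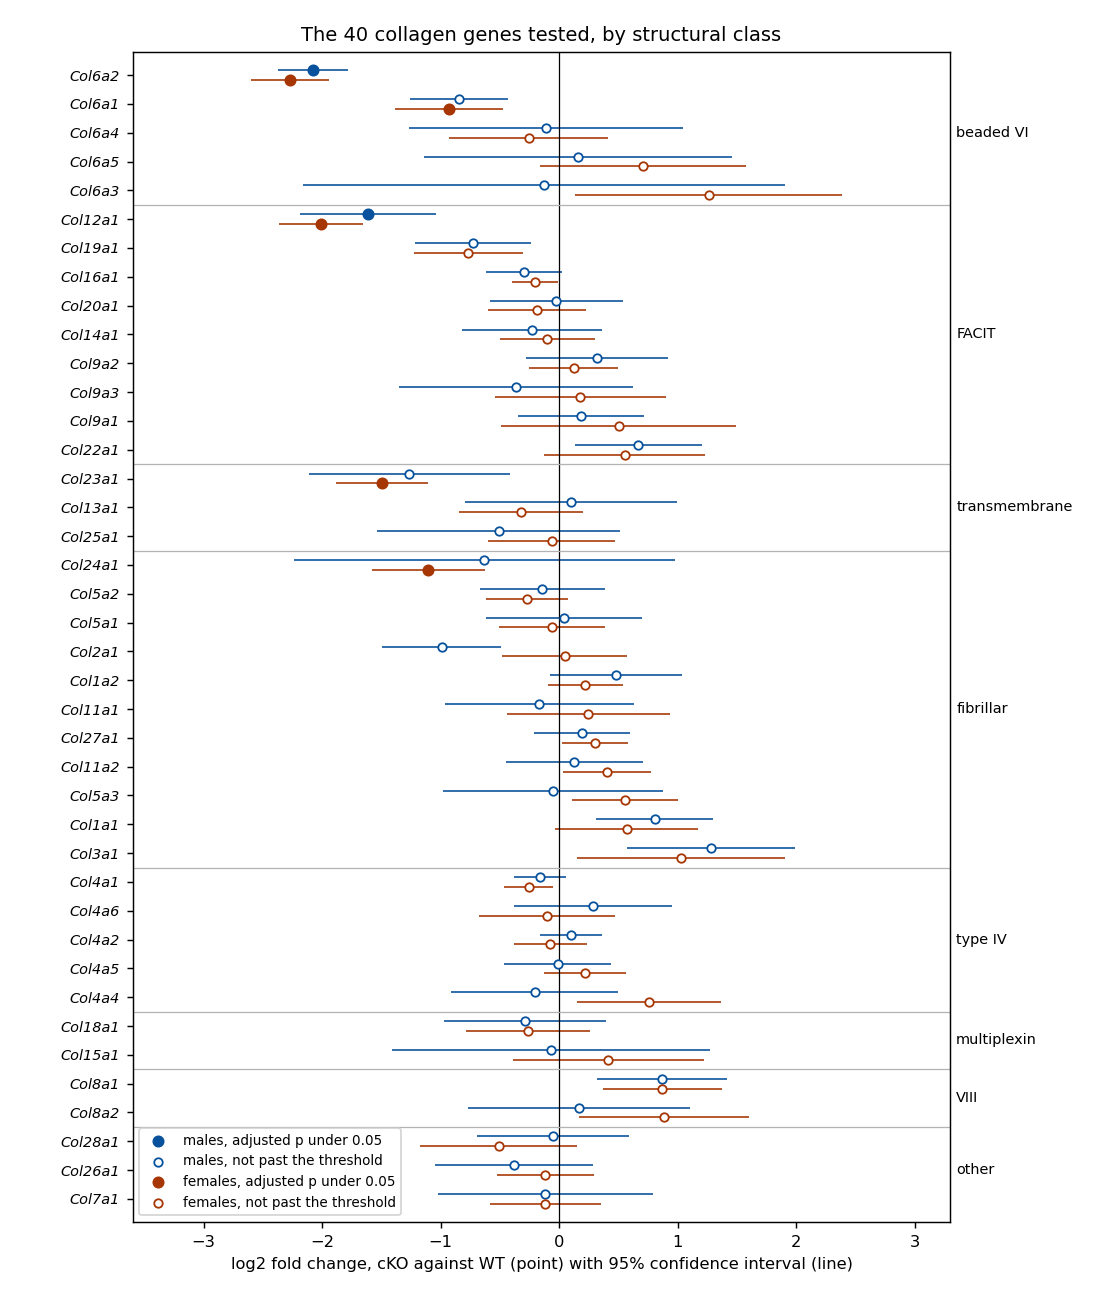
Log2 fold change of cKO against WT for the 40 tested collagen genes (points) with 95% confidence intervals (lines), grouped by structural class, males in blue and females in brown. Filled points passed the adjusted p threshold of 0.05: Col6a2 and Col12a1 in males, and Col6a2, Col12a1, Col23a1, Col24a1 and Col6a1 in females, all to the left of 0.

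Type VI collagen held the largest change. Col6a2 (ENSMUSG00000020241) encodes its alpha 2 chain, and Col6a1 (ENSMUSG00000001119) the alpha 1 chain that pairs with it in every type VI molecule. Both lie next to each other on chromosome 10 in the same direction. The 250 bases before the first start of each gene are shown because the pair fell together in females. They are from RefSeq, build GRCm38.p6, on the minus strand, at chr10:76623631-76623880 for Col6a2 and chr10:76726045-76726294 for Col6a1, written 5′ to 3′. Capitals mark a GC box.
Col6a2: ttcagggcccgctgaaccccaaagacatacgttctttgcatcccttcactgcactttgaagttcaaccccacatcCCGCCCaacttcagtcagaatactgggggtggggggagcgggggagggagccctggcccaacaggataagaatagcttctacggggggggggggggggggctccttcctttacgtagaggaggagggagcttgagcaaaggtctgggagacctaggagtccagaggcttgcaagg
Col6a1: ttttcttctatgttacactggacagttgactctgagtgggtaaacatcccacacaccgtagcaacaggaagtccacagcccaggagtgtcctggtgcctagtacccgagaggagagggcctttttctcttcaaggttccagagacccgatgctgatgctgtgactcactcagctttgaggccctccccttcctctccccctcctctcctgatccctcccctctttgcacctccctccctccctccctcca

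Searched on both strands were the GC box GGGCGG, the TATA box TATAAA and the core of the CTCF motif, named here without its letters, since CTCF is the factor at which cohesin commonly halts. The Col6a2 window held 1 GC box, read as CCGCCC from base -175, with -1 the base before the start, and the Col6a1 window held none of the motifs. A second window given for Col6a2, before a later start, held 3 GC boxes and neither of the other motifs. Of 32851 windows of this length in the same table, 32.7% held the GC box, 12.4% the TATA box and 2.07% the CTCF core. Windows were given for 35 of the 44 collagen genes and for 4 of the 5 that passed the threshold, all except Col12a1, and none of these 4 held the CTCF core. The absence of these letters says nothing about binding, and sites farther away were not searched. By gene order, 24 distinct genes lie within 3 places of the 5 genes that passed, other than where they neighbour each other. Of these, 18 were tested in each sex and none passed the threshold, Pcbp3, Slc19a1 and Col18a1 beside the Col6a1 and Col6a2 pair among them.

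Levels of Col6a2 in the 5 male WT libraries were 49.2, 42.7, 50.0, 65.8 and 52.8 CPM. In the 6 male cKO libraries they ran from 10.4 through a median of 11.8 to 16.1 CPM. Every male cKO library was below every male WT library. Female WT libraries held 39.2, 51.6, 55.1, 40.1 and 39.1 CPM, and female cKO libraries 6.55 to 11.3 with a median of 9.73 CPM, again with no overlap. Col6a2 thus fell 4.23-fold in males (log2 -2.08, SE 0.14, adjusted p = 4.23e-05 by edgeR) and 4.84-fold in females (log2 -2.27, SE 0.15, adjusted p = 9.96e-06 by edgeR). The call stood in all 11 fits that left out 1 library in each sex.

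Col6a1 was at 219, 259, 225, 388 and 327 CPM in male WT and at 120 to 225 CPM, median 151, in male cKO. Highest of the male cKO libraries was number 13, which reached the lower end of WT. Female WT held 190, 277, 297, 156 and 181 CPM, and female cKO 79.9 to 172 with a median of 113 CPM. One female cKO library, number 24, lay above the lowest WT library. In females Col6a1 fell 1.91-fold (log2 -0.93, SE 0.21, adjusted p = 0.0289 by edgeR), and in males the log2 value was -0.85 (SE 0.19, adjusted p = 0.0878 by edgeR), short of the threshold. The female call was lost without any one of cKO libraries 20, 21, 23 and 27 or WT libraries 18 and 19, with an adjusted p of up to 0.0888, and the male value passed without cKO library 13 (adjusted p = 0.0475). The male value also passed with one fit of all 4 groups (adjusted p = 0.0476 by edgeR) and with DESeq2 (adjusted p = 0.00313). With the oligodendrocyte marker level as a covariate it passed too (adjusted p = 0.0327 by edgeR), making 4 of 19 male alternatives.

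The 2 chains did not differ by the same factor. The count ratio of Col6a2 to Col6a1, which no scaling between libraries can move, was 0.189 ± 0.0319 in male WT (SD, n = 5) and 0.0821 ± 0.0257 in male cKO (SD, n = 6). In females it was 0.210 ± 0.0296 in WT (SD, n = 5) and 0.0852 ± 0.0247 in cKO (SD, n = 6). The groups did not overlap in either sex, and each 2-sided exact permutation p was 0.00433, the smallest that 462 splits allow (adjusted p = 0.0130 over 6 ratio tests). Ratios were compared after the levels had been seen. In type IV, the ratio of Col4a1 to Col4a2 was 0.707 ± 0.081 against 0.601 ± 0.122 in males and 0.664 ± 0.069 against 0.584 ± 0.068 in females (WT against cKO, SD, n = 5 and 6, adjusted p = 0.135 by exact permutation in both). In type I, the ratio of Col1a1 to Col1a2 was 0.491 ± 0.097 against 0.649 ± 0.108 in males and 0.451 ± 0.108 against 0.566 ± 0.123 in females (WT against cKO, SD, n = 5 and 6, adjusted p = 0.0606 and 0.139 by exact permutation). Neither of these pairs passed the threshold after adjustment.

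**Figure D2:**
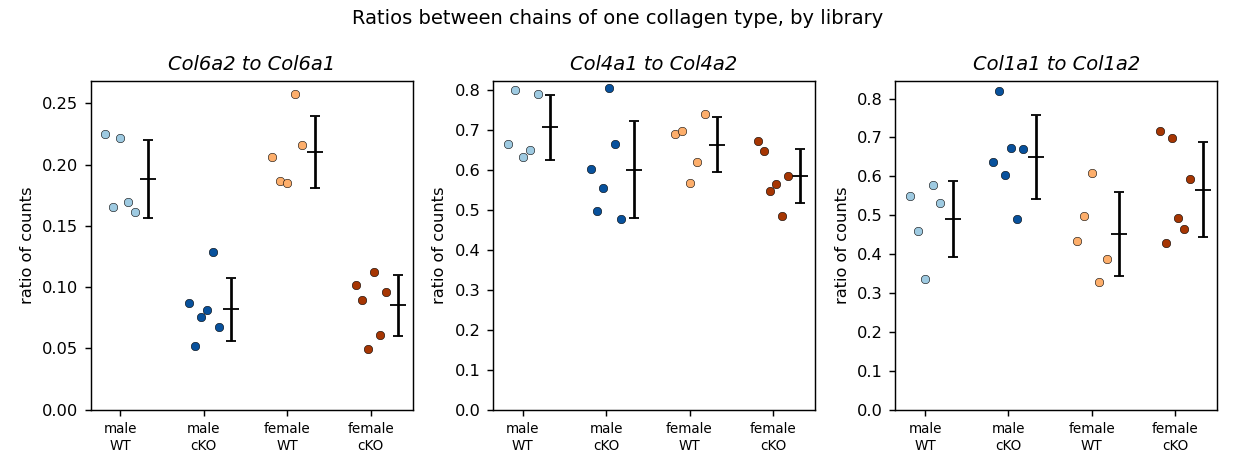
Count ratio between chains of one collagen type in each library (points, 5 WT and 6 cKO per sex), with the group mean and SD as the bar beside them. The Col6a2 to Col6a1 ratio was 0.161 to 0.225 in male WT and 0.0524 to 0.128 in male cKO without overlap, while the type IV and type I ratios overlapped between genotypes.

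The other type VI genes tested did not pass. Col6a3, the third chain of the classical molecule, was at 76.7, 2.32, 10.2, 24.3 and 3.19 CPM in male WT and at 2.56 to 62.5 CPM, median 11.4, in male cKO. In females it was 27.9, 18.4, 11.4, 2.46 and 28.3 CPM in WT and 10.6 to 84.0 CPM, median 37.3, in cKO. Libraries of one group thus differed more than the groups did, and the log2 values were -0.13 (SE 0.94) in males and 1.26 (SE 0.52, adjusted p = 0.254 by edgeR) in females. Col6a4 and Col6a5, which can take the place of the third chain, had log2 values between -0.26 and 0.71. Col6a6 was too low to test within a sex, at means of 1.06 CPM in male WT, 0.597 in male cKO, 0.686 in female WT and 0.324 in female cKO.

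Among the FACIT collagens Col12a1 fell and the other 8 did not pass. Col12a1 (ENSMUSG00000032332) encodes type XII collagen, which binds fibrils of type I and bridges them to other matrix proteins. It was at 33.8, 44.0, 56.4, 58.9 and 34.7 CPM in male WT and at 7.35 to 20.7 CPM, median 15.7, in male cKO. Female WT held 26.8, 36.3, 44.9, 43.6 and 41.9 CPM, and female cKO 6.84 to 12.7 with a median of 9.82 CPM. Genotypes did not overlap in either sex. The fall was 3.06-fold in males (log2 -1.61, SE 0.26, adjusted p = 0.0269 by edgeR) and 4.03-fold in females (log2 -2.01, SE 0.16, adjusted p = 4.07e-05 by edgeR). In females the call stood with every library left out in turn, while in males it was lost without any one of cKO libraries 10, 12 and 14 or WT libraries 3, 4 and 5, with an adjusted p of up to 0.0944.

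Col19a1, the FACIT chain known in mouse for its part in forming inhibitory nerve terminals, was 12.4, 25.997, 18.7, 12.2 and 17.4 CPM in male WT and 6.10 to 13.5 CPM in male cKO, and 5.99 to 9.31 CPM in female cKO beside 7.85 to 17.5 CPM in female WT. Its log2 values of -0.73 (SE 0.23, adjusted p = 0.249) and -0.77 (SE 0.21, adjusted p = 0.0732) did not pass edgeR's threshold. The female value passed without cKO library 24 and without WT library 26. Col9a3, the FACIT gene of the highest level per kb, ranged from 12.6 to 66.5 CPM in male WT and from 9.48 to 46.2 CPM in female WT, and its log2 values were -0.37 (SE 0.45) and 0.18 (SE 0.33).

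Of the transmembrane collagens, Col23a1 (ENSMUSG00000063564), which in mouse is made by neurons and by epithelial cells, fell in females. Female WT held 34.2, 31.7, 31.7, 19.2 and 42.0 CPM, and female cKO 8.55 to 14.3 with a median of 11.5 CPM. No female cKO library reached the lowest WT library, and the fall was 2.82-fold (log2 -1.50, SE 0.18, adjusted p = 6.47e-04 by edgeR). In males WT held 62.2, 26.9, 33.9, 39.4 and 41.3 CPM and cKO 7.46 to 40.1 with a median of 13.4 CPM. One male cKO library, number 8, was at 40.1 CPM, within the WT range, while the next highest was at 18.4 CPM. The male log2 value was -1.26 (SE 0.39, adjusted p = 0.240 by edgeR), and without library 8 it was -1.73 and passed (adjusted p = 0.0150). That library was also the lowest of all male cKO in excitatory neuron markers, at a summed 2006 CPM beside 3015 to 4035 CPM in the others, and the second highest in leptomeningeal markers. With the leptomeningeal marker level, high in that library, as a covariate the male value was -1.59 and passed (adjusted p = 0.0488 by edgeR). That fit and the one without library 8 are thus not separate. The male Col23a1 value passed in 4 of 19 alternatives in all, and DESeq2 did not call it. No fit with the excitatory marker level was made; the relation of Col23a1 to those markers is given below. Col25a1, known from the amyloid plaques of Alzheimer's disease and from motor nerve targeting, was at 33.1 to 186 CPM in male WT, 15.8 to 102 CPM in male cKO, 57.2 to 166 CPM in female WT and 66.5 to 142 CPM in female cKO, with log2 values of -0.51 (SE 0.47) and -0.06 (SE 0.25).

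Col24a1 (ENSMUSG00000028197), a fibrillar chain of bone and of cortical neurons, fell in females from 4.23, 3.94, 5.76, 5.05 and 4.59 CPM in WT to 1.41 to 3.51 CPM in cKO, median 2.12. Groups did not overlap, and the fall was 2.15-fold (log2 -1.10, SE 0.22, adjusted p = 0.0151 by edgeR). With the spread shared over all 4 groups the call was lost (adjusted p = 0.555). Male levels had another range: 4.98, 18.9, 5.45, 6.62 and 42.1 CPM in WT, and 2.42 to 34.1 CPM, median 5.25, in cKO. The high male libraries were WT 3, WT 6 and cKO 8, which were also the male libraries lowest in oligodendrocyte markers. The male log2 value was -0.63 (SE 0.74, adjusted p = 0.916 by edgeR). The male 95% interval of -2.24 to 0.97 includes the female value.

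**Figure D3:**
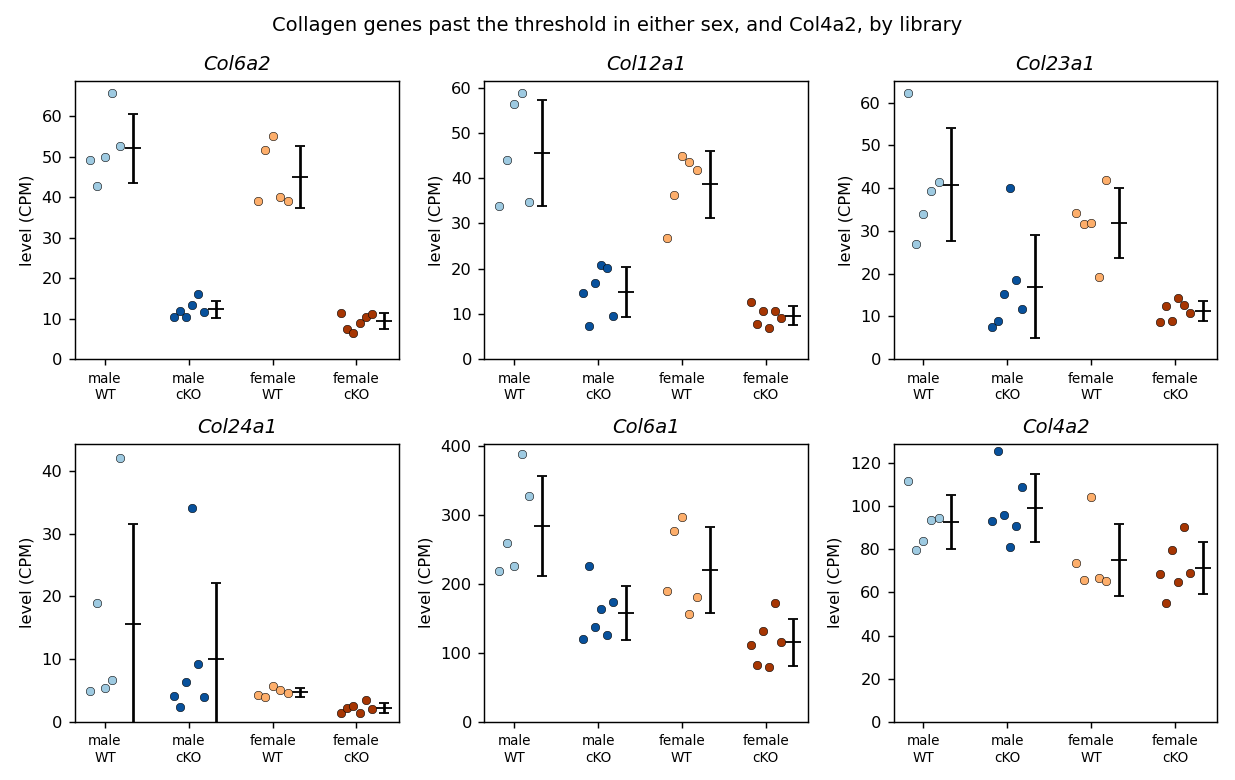
Level in CPM of the 5 collagen genes that passed the threshold in either sex, and of Col4a2 as the highest vascular collagen, in each library (points), with the group mean and SD as the bar beside them (cut at 0 for male Col24a1). Col6a2 and Col12a1 separate the genotypes in both sexes, Col23a1 and Col24a1 in females, and Col4a2 lies between 55.2 and 125 CPM in all groups.

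Non-overlapping levels were read against all genes tested. In males 2 of the 40 collagen genes lay wholly lower in cKO (all genes 1.37%) and none wholly higher (all genes 0.789%). In females 4 lay wholly lower (all genes 2.58%) and 1 wholly higher (all genes 1.04%). The last was Col8a1, a short-chain network collagen of vessel walls and of Descemet's membrane, at 1.72, 1.46, 1.60, 1.77 and 1.33 CPM in female WT and 1.98 to 4.77 CPM in female cKO. Its log2 value was 0.87 in each sex (SE 0.25 and 0.23, adjusted p = 0.212 in males and 0.0636 in females by edgeR), short of the threshold. It was called as higher in females by DESeq2 and by edgeR without cKO library 23, and in males with the oligodendrocyte marker level as a covariate. Col8a2, its partner chain, had log2 values of 0.17 (SE 0.43) in males and 0.88 (SE 0.33, adjusted p = 0.201 by edgeR) in females.

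Of the 5 fibrillar chains in the meningeal list, Col1a1, Col1a2 and Col3a1 had positive log2 values in both sexes, and none of the 5 passed. Col3a1 was at 2.09, 2.40, 2.36, 2.39 and 5.53 CPM in male WT and 4.70 to 12.97 CPM, median 6.44, in male cKO, so WT library 6 alone overlapped the cKO range. In females it was 1.96 to 4.10 CPM in WT and 2.38 to 12.04 CPM in cKO. Log2 values were 1.28 (SE 0.33, adjusted p = 0.147) in males and 1.03 (SE 0.41, adjusted p = 0.229) in females by edgeR. Col1a1 was at 11.4, 8.56, 6.33, 8.39 and 14.7 CPM in male WT and 13.3 to 26.2 CPM in male cKO, and its log2 values were 0.80 (SE 0.23, adjusted p = 0.192) and 0.57 (SE 0.28, adjusted p = 0.350). All 17 leptomeningeal fibroblast markers had a positive log2 value in males as well, none of them past the threshold, with a median of 0.55. In females 16 of them were tested, 9 positive and 7 negative, with a median of 0.09 and none past the threshold. Over all genes tested, 8389 of 16098 values were positive in males and 8532 of 16123 in females. The summed level of the 17 markers was 98.5 to 288 CPM in male WT and 94.8 to 436 CPM in male cKO, and in females 108 to 138 CPM and 98.7 to 194 CPM. More cells of a type and more RNA per cell, or fewer and less, cannot be told apart in bulk tissue. With the leptomeningeal marker level as a covariate the male log2 value of Col3a1 was 1.19 (adjusted p = 0.0514) and that of Col1a1 0.73 (adjusted p = 0.0885), neither past edgeR's threshold. Male Col3a1 passed with the oligodendrocyte marker level as a covariate (1.38, adjusted p = 0.0403 by edgeR) and with DESeq2 (1.28, adjusted p = 0.0122). Male Col1a1 passed with DESeq2 alone (adjusted p = 0.0372). Without the 3 male libraries highest in leptomeningeal markers, a fit chosen after seeing the data, Col3a1 was at 1.37 and passed (adjusted p = 0.0372 by edgeR). It passed in 3 of 19 male alternatives. The fit without the 3 libraries also leaves out WT library 6, the WT library highest in Col3a1. Col1a2 had log2 values of 0.48 (SE 0.26) and 0.22 (SE 0.15), Col5a2 of -0.14 (SE 0.24) and -0.27 (SE 0.16), and Col5a1, the most abundant fibrillar gene per kb, of 0.04 (SE 0.30) and -0.06 (SE 0.21).

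None of the basement membrane and other vascular collagens passed. Col4a2 was at 79.5 to 112 CPM in male WT and 81.0 to 125 CPM in male cKO, with log2 values of 0.10 (SE 0.12) in males and -0.07 (SE 0.14) in females. Col4a1 had log2 values of -0.16 (SE 0.10) and -0.26 (SE 0.10, adjusted p = 0.196 by edgeR in females). The 95% interval of Col4a2 was -0.16 to 0.36 in males. Those of the multiplexins of the outer basement membrane were wider, at -1.41 to 1.27 for Col15a1 and -0.97 to 0.40 for Col18a1. In the GRCm38 annotation Col4a1 and Col4a2 are read outward from starts 21 bases apart on chromosome 8, and Col4a5 and Col4a6 from starts 1343 bases apart on chromosome X. Of the remaining genes, Col7a1, the anchoring fibril collagen, had log2 values of -0.12 in both sexes.

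By the lists of collagens known from each cell type, the 5 neuronal collagens (Col11a1, Col19a1, Col23a1, Col24a1, Col25a1) had a median log2 value of -0.63 in males, with 0 past the threshold, and of -0.77 in females, with 2 fallen. The 4 vascular collagens (Col4a1, Col4a2, Col15a1, Col18a1) had medians of -0.12 and -0.17, with none past the threshold in either sex. For the 9 meningeal collagens (Col1a1, Col1a2, Col3a1, Col5a1, Col5a2, Col6a3, Col8a2, Col13a1, Col14a1) the medians were 0.10 and 0.22, with none past it. Col6a2, Col6a1 and Col12a1, which held 3 of the 5 falls, are in none of these lists. Over all genes tested the median was 0.01 in each sex, and 0.503% fell in males and 2.75% in females. None of the medians was tested against it.

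No difference between the sexes in the genotype effect was called for a collagen gene. Of 43 genes tested in the genotype by sex term over all 22 libraries, 0 passed edgeR's adjusted threshold and 2 had an unadjusted p under 0.05, beside 176 (1.04%) of 16855 genes, 0 of which passed the adjustment. DESeq2 also called 0. The 2 were Col2a1, the fibrillar chain of cartilage, with a log2 value of -0.99 (SE 0.23, adjusted p = 0.0965) in males and 0.05 (SE 0.24) in females, and Col4a4, with -0.21 and 0.76. For Col6a2 the difference, male minus female, was 0.20 with a 95% interval of -0.24 to 0.64, for Col12a1 0.40 (-0.28 to 1.08), for Col23a1 0.24 (-0.71 to 1.19) and for Col24a1 0.48 (-1.30 to 2.26). These intervals leave room for differences of size. On simulated counts this test recovered 62.7% of 2-fold and 23.9% of 1.5-fold differences. The changes were set in genes drawn at random from all tested, with noise independent between genes. Those shares therefore do not give the power for collagen genes. In the real data the Col2a1 difference of -1.03 (SE 0.34, unadjusted p = 0.00625 by edgeR) did not pass the adjustment. Passing in one sex alone is thus not shown to be a difference between the sexes, nor is its absence shown.

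Whether collagen levels followed a cell type was examined over the 22 libraries, with both the collagen and the marker level centred on the mean of its group. The 40 genes and 5 marker lists gave 200 relations, of which 46 passed an adjusted p of 0.05 by permutation and 26 still did without the 2 libraries farthest out in the marker level. Oligodendrocyte markers had the most, 13, of which 10 were kept. Col6a3 followed them with r = 0.92 (adjusted p = 6.67e-04) and rho = 0.88 (adjusted p = 0.0015 by permutation), and r was 0.89 without the 2 farthest libraries. Col6a5, Col9a3, Col11a2, Col5a3, Col15a1, Col25a1, Col26a1 and Col8a2 were positive too, with r from 0.71 to 0.82. Col24a1 ran the other way with r = -0.82 and rho = -0.86 (adjusted p = 6.67e-04 and 0.0015 by permutation), r being -0.74 without those libraries, and Col19a1 with r = -0.75 and rho = -0.76 (adjusted p = 0.004 and 0.00667 by permutation). Choroid and ependymal markers were not among the 5 lists, and their relation to Col6a3 was not tested. In male WT libraries 1, 3, 4, 5 and 6 they summed to 91.9, 16.2, 28.5, 61.8 and 29.0 CPM. Col6a3 was at 76.7, 2.32, 10.2, 24.3 and 3.19 CPM in the same libraries. Oligodendrocyte markers are thus not shown to be the only ones that Col6a3 followed.

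**Figure D4:**
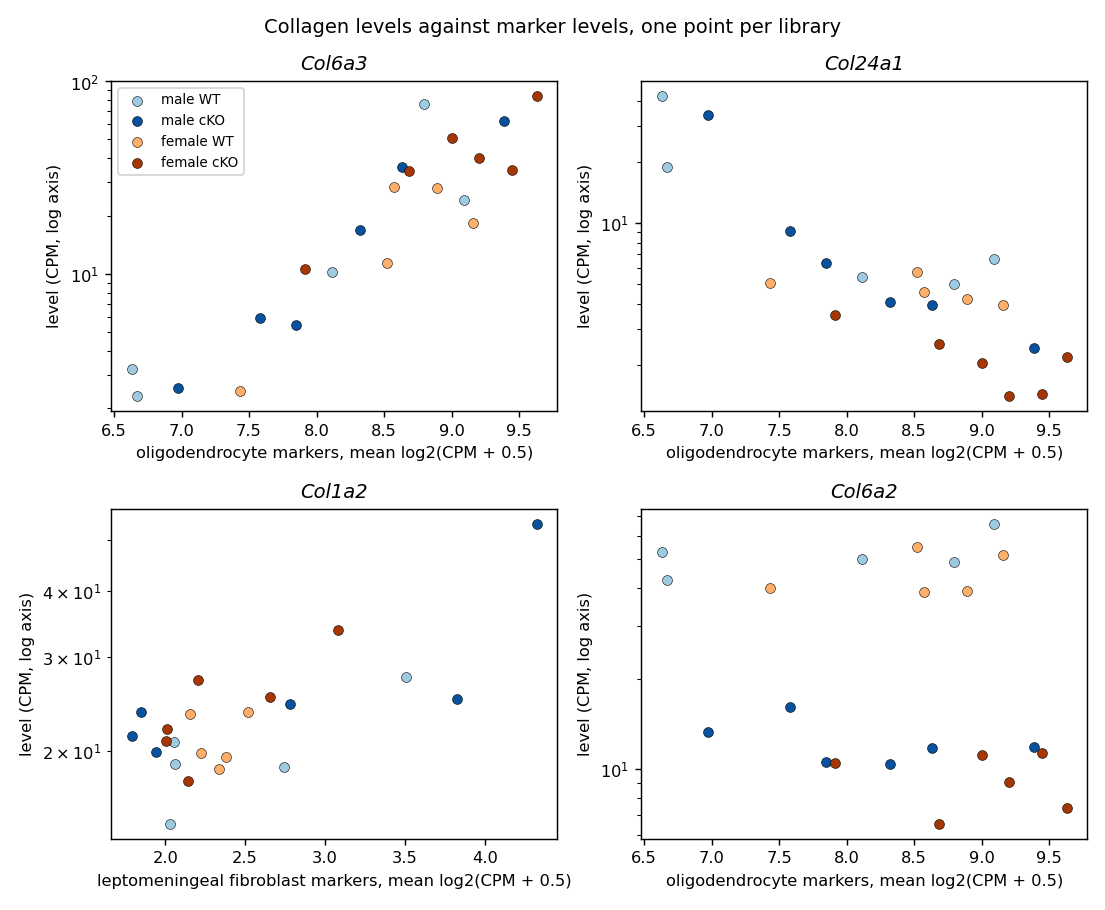
Level in CPM (log axis) of Col6a3, Col24a1 and Col6a2 against the mean log2 level of 8 oligodendrocyte markers, and of Col1a2 against 17 leptomeningeal fibroblast markers, one point per library, coloured by group. Col6a3, from 2.32 to 84.0 CPM, is higher and Col24a1 lower where oligodendrocyte markers are higher, while Col6a2 separates by genotype.

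Excitatory neuron markers had 9 relations, and 8 of them were negative. Col11a1 was lowest where these markers were highest (r = -0.91, rho = -0.91, adjusted p = 6.67e-04 and 0.0015 by permutation; r = -0.89 without 2 libraries), and Col23a1 had r = -0.79 and rho = -0.75 (adjusted p = 0.00257 and 0.00756 by permutation; r = -0.61 without 2 libraries). The one positive relation was Col22a1, a FACIT chain of tissue junctions, with r = 0.79 and rho = 0.71 (adjusted p = 0.00257 and 0.00873 by permutation; r = 0.77 without 2 libraries). Leptomeningeal markers had 10 relations, of which 3 were kept without male cKO libraries 8 and 9: Col1a2 (r = 0.77 with and 0.69 without them), Col4a6 (0.77 and 0.65) and Col6a5 (-0.62 and -0.63). The leptomeningeal, endothelial and mural lists moved together (r = 0.79 to 0.87 between them) and against the oligodendrocyte list (r = -0.64 for the leptomeningeal one), so relations to them are not separate.

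The lists by cell type were only partly borne out by these relations. None of the 5 neuronal collagens was positively related to the excitatory neuron markers at the threshold, and 2 were negatively related. None of the 4 vascular collagens was positively related to endothelial or mural markers, and Col15a1 was negatively related to endothelial markers (r = -0.59, adjusted p = 0.048 by permutation). Of the 9 meningeal collagens 3, Col1a1, Col1a2 and Col13a1, were positively related to the leptomeningeal markers, and Col5a1 and Col6a3 were negatively related. Of these 3, Col1a2 alone kept its relation without male cKO libraries 8 and 9, and for Col1a1 rho was 0.33 (adjusted p = 0.264 by permutation). Levels in this tissue thus did not set the neuronal, vascular and meningeal lists apart. Col6a2, Col6a1 and Col12a1 had no relation past the threshold to any of the 5 lists, with r between -0.39 and 0.52. Without male cKO library 8 and male WT library 1, Col12a1 had r = 0.58 with excitatory neuron markers (adjusted p = 0.0415 by permutation). Without male WT libraries 3 and 6 it had r = -0.67 with oligodendrocyte markers (adjusted p = 0.0441 by permutation). The lack of a relation for Col12a1 thus depends on which libraries are included.

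**Figure D5:**
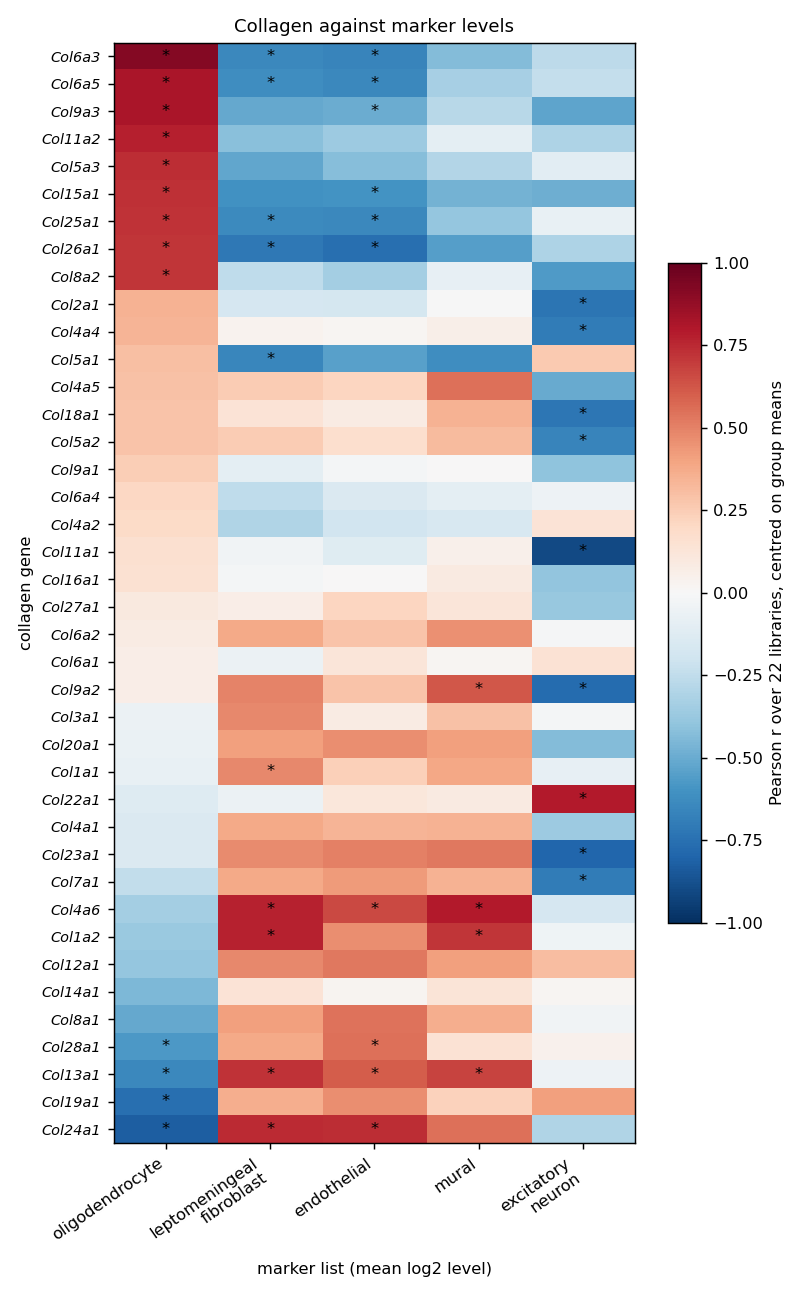
Pearson r between the level of each tested collagen gene and the mean level of each of 5 marker lists over 22 libraries, both centred on group means (red positive, blue negative). Stars mark the 46 of 200 relations with an adjusted p under 0.05, and genes are ordered by r with the oligodendrocyte list, from 0.92 for Col6a3 to -0.82 for Col24a1.

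Genes that build, bind or cut collagen were taken from lists. In females 7 passed edgeR's threshold (all genes 3.37%, with 2.75% fallen and 0.62% risen), and in males none did (all genes 0.584%). Of 26 processing genes tested in females 3 fell and 1 rose. Bmp1, the protease that trims fibrillar procollagens, fell from 62.2 ± 3.31 CPM (SD, n = 5) to 31.2 ± 3.29 CPM (SD, n = 6; log2 -0.996, SE 0.08, adjusted p = 2.73e-05 by edgeR). Adamts2, which removes the other end of those procollagens, fell by 0.79 on the log2 scale (SE 0.19, adjusted p = 0.0401 by edgeR), and Colgalt1, which adds galactose to collagen lysines, by 0.26 (SE 0.05, adjusted p = 0.0162 by edgeR). Serpinh1, the collagen chaperone of the endoplasmic reticulum, rose from 16.2 ± 2.27 to 22.7 ± 3.10 CPM (SD, n = 5 and 6; log2 0.49, SE 0.12, adjusted p = 0.0379 by edgeR).

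Of 12 receptors tested in females 1 fell, Adgrg6, an adhesion receptor that binds type IV collagen (log2 -1.33, SE 0.33, adjusted p = 0.0435 by edgeR). Of 13 genes of degradation 2 fell, the membrane protease Mmp16 (log2 -0.75, SE 0.10, adjusted p = 0.00144 by edgeR) and the protease inhibitor Timp2 (log2 -0.37, SE 0.08, adjusted p = 0.0208 by edgeR). None of the 18 basement membrane partners, laminins and nidogens among them, passed in either sex. In males these processing genes had values of -1.10 for Bmp1 (SE 0.26, adjusted p = 0.107), -0.997 for Adamts2 (SE 0.22, adjusted p = 0.0768), -0.33 for Colgalt1 (SE 0.07, adjusted p = 0.0627) and 0.49 for Serpinh1 (SE 0.15, adjusted p = 0.251), none past edgeR's threshold. Male values were -0.84 for Adgrg6 (SE 0.31, adjusted p = 0.368), -0.69 for Mmp16 (SE 0.19, adjusted p = 0.192) and -0.45 for Timp2 (SE 0.11, adjusted p = 0.135), also short of edgeR's threshold. The difference between sexes passed for none of these lists' genes.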

How the data were processed

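The authors deposited raw counts for each gene, males and females in separate tables. Cutadapt, STAR, HTSeq and DESeq2 appear in the submitters' processing notes, with build GRCm39. How strand was handled is not given in the sources used here, so reads of overlapping or antisense genes cannot be told apart. The 22 columns of normalized counts were not used. One female cKO column, number 20, matches no title by number and was used as a replicate of its group. The log2 fold changes, p-values and adjusted p-values in the authors' deposited table are quoted in the closing section only as a count of genes.

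Genes passed filterByExpr at a minimum count of 10 and a minimum total of 15. After TMM scaling they were tested with edgeR 4.0.16 (limma 3.58.1, R 4.3.3) by the quasi-likelihood F test within each sex, and by the genotype by sex term over 22 libraries. Levels are CPM on TMM-scaled totals. Exon lengths are the union of all annotated exons of a gene in GENCODE M21 on GRCm38. Relations used log2(CPM + 0.5) and 100000 permutations within groups, 2-sided, with Benjamini-Hochberg adjustment over 200 relations, in scipy 1.17.1. DESeq2 1.42.0 was an alternative. The depth limits precision for low genes, and counting error is covered by the spread between libraries. No 2 libraries of a group agreed within sampling noise (over 50 pairs, chi-square divided by its degrees of freedom was at least 5.81). Each sample number was taken as 1 animal, and p-values measure the spread between these samples.

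The fits were tested on simulated counts of the same genes. Changes were set in genes drawn at random from all tested, with noise independent between genes, so the shares are not those of collagen genes. In the male comparison (16098 genes) 71.6% of genes changed 2-fold and 25.4% of those changed 1.5-fold were recovered, and in the female comparison (16123 genes) 77.6% and 55.2%.

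The collagen genes and all gene lists were chosen with earlier results of these data known. Genes described in full were those past the threshold in either sex, the highest of each structural class by CPM, and up to 2 per cell type list with the smallest p; Col6a3, Col8a1, Col19a1, Col2a1, Col4a4, Col11a1, Col1a2 and Col22a1 were added after their values were seen.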

Additional observations from a re-analysis of the deposited data

Results flagged for a closer look

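Of 60 groups of 5 or 6 libraries checked for the named collagen genes, 6 had 1 library standing far from the rest by Dixon's test at the 95% level, a test that chance alone passes in about 5% of groups. Among male cKO libraries, number 8 stood high for Col23a1 at 40.1 CPM (next 18.4) and for Col24a1 at 34.1 CPM (next 9.16), and number 9 for Col3a1 at 12.97 CPM (next 7.58) and for Col1a1 at 26.2 CPM (next 17.5). Male WT library 6 stood high for Col3a1 at 5.53 CPM (next 2.40), and female WT library 19 for Col4a2 at 104 CPM (next 73.6). Male libraries 8, 9 and 6 are the 3 highest in leptomeningeal markers of their sex, and the report gives the fits with that marker level as a covariate and without these libraries. With the covariate the male calls were Col6a2, Col12a1 and Col23a1.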

How the results depend on the processing

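No paired analysis was possible because no replicate number occurs in more than 1 group. The male count of 2 collagen genes was 6 with DESeq2, 5 with one fit of all 4 groups, 6 with the oligodendrocyte marker level as a covariate, and 4 without the 3 male libraries highest in leptomeningeal markers, an alternative chosen after seeing the data; with 1 library left out it ran from 1 to 4. With DESeq2 the added male genes were Col6a1 and Col2a1 (lower) and Col1a1 and Col3a1 (higher), and the authors' deposited table lists the same number, 6 in males and 7 in females. The female count of 5 was 7 with DESeq2, which added Col19a1 (lower) and Col8a1 (higher), and 4 to 6 with 1 library left out, and 0 genes differed between sexes under the 28 alternatives run. For the lists of processing, receptors, degradation and basement membrane partners, the male count of 0 was 6 with DESeq2, 5 with one fit of all groups, 2 with the leptomeningeal and 3 with the oligodendrocyte covariate, 1 without the 3 libraries, and 0 to 2 with 1 left out; the female count of 7 was 4 with one fit and 3 to 7 with 1 left out, 3 without WT library 18 or 19. Over all genes, male calls were 94 with edgeR and 335 with DESeq2, and female calls 543 and 919. Col6a2 was called in all 19 male and 18 female alternatives (log2 -2.23 to -1.98 and -2.34 to -2.20), Col12a1 in 13 and 18. Scaling by RLE or by library totals changed no call of a named collagen gene. The cause of these changes was not tested.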

Other observations

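In female cKO library 21, choroid plexus and ependymal markers summed to 686 CPM, beside a median of 89.4 CPM in that group, and Ttr, the transthyretin gene of choroid plexus epithelium, reached 528 CPM. The same library was the highest of its group for Col9a1 (5.89 CPM, the others 0.891 to 1.78), Col8a1 (4.77 CPM), Col4a4 (2.70 CPM), Col8a2 (11.98 CPM) and Col6a3 (84.0 CPM); these genes were picked after their values were seen. All 9 choroid markers had a positive log2 value in females, none past edgeR's threshold, and their part in the collagen levels was not tested.

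Of the 4 collagen genes too low to test within a sex, Col17a1 ranged from 0.197 to 1.39 CPM over the female libraries and Col6a6 from 0.0684 to 1.20 CPM. Col10a1, the collagen of hypertrophic cartilage, had no count in 4 of the 22 libraries, 2 male cKO and 2 female WT.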
